A study of Rattus norvegicus with 4 samples.

Results

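The insulin-like growth factor (IGF) family studied here was a set of 10 genes, chosen by symbol from the 17778 rows of the gene table: the ligand genes Igf1 and Igf2, the receptor genes Igf1r and Igf2r, and the 6 binding protein genes Igfbp2 to Igfbp7. Each symbol had a single row. Expression was measured by poly(A) RNA sequencing in RSC96 cells, a spontaneously transformed line derived from rat Schwann cells, the glia of peripheral nerve. All cells were at generation 4 and were kept overnight in medium lacking serum. The IL-22 group (2 libraries) then received recombinant rat IL-22, a STAT3-activating cytokine of the IL-10 family, at 100 ng/ml for 48 h, and the control group (2 libraries) received only its solvent, 0.1% bovine serum albumin, over a period not stated in the labels. The labels do not say that the libraries of a group came from separate cultures, so p-values cover no more than the variation among these libraries, and that may be technical.

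IGF1 and IGF2 are secreted growth and survival factors. Both act mainly through the receptor tyrosine kinase IGF1R, which recruits insulin receptor substrates and activates the PI3K-AKT and ERK pathways. IGF2R, the cation-independent mannose-6-phosphate receptor, carries lysosomal enzymes and removes IGF2 by internalising it. The binding proteins hold IGFs in the extracellular space and are cut by dedicated proteases, which frees the ligand. In peripheral nerve, IGFs are known as survival factors for Schwann cells and promote neurite outgrowth.

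The labelled cell type was checked against marker genes. Of 13 Schwann lineage markers, 10 had a mean under 1 FPKM (fragments scaled by transcript length and library size). The defining genes Sox10 and S100b did not exceed 0.0315 and 0.0760 FPKM in any library, and Cdh19, Mbp and Fabp7 were listed at 0 in all 4. The summed level of this list was 36.8 and 41.4 FPKM with IL-22, against 27.3 and 28.2 FPKM in controls, and it came mostly from Ncam1. Of 9 fibroblast markers, 6 had a mean of at least 1 FPKM, with summed levels of 425 and 431 FPKM with IL-22 and 418 and 408 FPKM in controls, while Dcn, Lum and Postn were listed at 0 throughout. Members of this list differed in direction beneath these sums. Col1a2, a collagen chain gene, measured 144 and 148 FPKM with IL-22, against 186 and 159 FPKM in controls, and Col1a1 measured 6.12 and 6.92 FPKM with IL-22, against 11.0 and 8.98 FPKM in controls. Thy1 measured 242 and 241 FPKM with IL-22, against 201 and 222 FPKM in controls, and Fbln1, the fibulin gene, 19.4 and 19.8 FPKM with IL-22, against 9.25 and 8.38 FPKM in controls. The 7 macrophage markers summed to 1.67 and 1.33 FPKM with IL-22 and to 2.25 and 2.03 FPKM in controls. The 5 endothelial markers summed to 1.15 and 1.50 FPKM with IL-22 and to 1.90 and 1.70 FPKM in controls. Of the 5 myoblast markers 4 were listed at 0, and the list summed to 2.23 and 2.62 FPKM with IL-22 and to 0.185 and 0.241 FPKM in controls, almost all from Des, the desmin gene. The part of these marker levels in the results below was not tested.

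The family was present only in part, as was the whole table. Tests were limited to rows averaging 1 FPKM or more, which 9485 of all 17778 rows reached. This left 5 of the 10 members, namely both receptors and the binding protein genes Igfbp4, Igfbp6 and Igfbp7. Both ligand genes, Igfbp2 and Igfbp3 were listed at 0 in every library, as were 5296 of the 17778 rows. Igfbp5 was near the smallest values of the table. Igfbp4 fell to about 0.36 of its control level after IL-22, Igfbp7 rose 1.47-fold, and Igfbp6 was lower by a margin close to the threshold. The receptors Igf1r and Igf2r did not pass the test. Against a table in which 58.4% of the 9485 tested rows were called in either direction, 3 called members of 5 tested is near the background.

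The sequences just upstream of the 3 expressed binding protein genes are shown because these genes supplied nearly all binding protein mRNA in these cells. Each is the 250 bases before the RefSeq transcription start in the rat assembly GRCr8, 5′ to 3′ on the coding strand, which was the plus strand for all 3. Igfbp4 lies at chr10:84491221-84491470, Igfbp6 at chr7:135154669-135154918 and Igfbp7 at chr14:31091486-31091735. Capitals mark matches, on either strand, to a TATA box (TATAAA), a GC box (GGGCGG), the hypoxia response core (ACGTG), the FOXO motif (GTAAACA) or the STAT motif (TTCNNNGAA).
Igfbp4: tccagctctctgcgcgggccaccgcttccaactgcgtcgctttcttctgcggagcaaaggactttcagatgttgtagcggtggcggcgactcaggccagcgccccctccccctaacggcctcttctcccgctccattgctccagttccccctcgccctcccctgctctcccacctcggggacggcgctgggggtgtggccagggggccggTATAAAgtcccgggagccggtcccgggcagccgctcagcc
Igfbp6: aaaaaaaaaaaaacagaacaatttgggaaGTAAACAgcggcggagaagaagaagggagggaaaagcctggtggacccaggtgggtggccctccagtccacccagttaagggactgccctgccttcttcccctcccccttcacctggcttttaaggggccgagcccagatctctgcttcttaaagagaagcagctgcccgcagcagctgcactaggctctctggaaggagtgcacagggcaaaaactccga
Igfbp7: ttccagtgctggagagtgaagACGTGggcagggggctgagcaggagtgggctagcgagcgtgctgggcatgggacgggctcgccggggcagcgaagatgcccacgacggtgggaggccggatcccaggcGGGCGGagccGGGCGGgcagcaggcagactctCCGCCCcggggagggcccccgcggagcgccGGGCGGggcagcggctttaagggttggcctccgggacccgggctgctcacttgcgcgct

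The Igfbp4 window held a TATA box beginning 40 bases before the start and no other match, with a GC content of 68.8%. The Igfbp7 window had a GC content of 74.4%, 4 GC boxes and 1 hypoxia response core at 229 bases before the start. The Igfbp6 window had a GC content of 54.8% and a single match, to the FOXO motif, at 221 bases before the start. Among all 33469 windows of the same length, 12.9% held the TATA box, 30.5% the GC box, 16.6% the hypoxia core, 3.21% the FOXO motif and 7.67% the STAT motif. All 10 members matched a promoter entry, Igf2 with 2 starts, and the STAT motif was in 0 of these 11 windows. The hypoxia core overlaps its own reverse complement, so that a palindromic site counts on both strands. A match describes letters in a window and is not evidence of binding.

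Igf1 and Igf2, which encode the ligands, were each listed at 0 FPKM in both IL-22 libraries and in both control libraries. The insulin genes Ins1 and Ins2 were likewise listed at 0 in all 4. An entry of exactly 0 may stand for an estimate that failed. Among 70 respiratory chain rows 4 were at 0 in any library. These 4 were the isoform genes Cox6a2, Cox6b2, Cox8b and Cox8c, named after their values were seen. Such rows cannot show whether the estimates of the ligand genes failed, which was not tested.

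Igf1r, the receptor kinase that conveys IGF signals, measured 47.8 and 46.2 FPKM with IL-22, against 46.8 and 50.3 FPKM in controls. The groups overlapped, and the difference on the log2(FPKM + 1) scale was -0.05 with a 95% interval from -0.21 to 0.12 (limma adjusted p = 0.605). Igf2r, the clearance receptor, measured 104 and 106 FPKM with IL-22, against 95.4 and 94.3 FPKM in controls. Both IL-22 libraries lay above both controls, as the groups of 80.1% of tested rows also did not overlap, but the difference of 0.14 (95% interval 0.00 to 0.28) did not pass (limma adjusted p = 0.0741). With quantile normalization it passed at a difference of 0.18 (limma adjusted p = 0.0286, range 0.0286 to 0.328 over 14 alternatives). Igf2r mRNA exceeded Igf1r mRNA 2.17- and 2.29-fold in the IL-22 libraries and 2.04- and 1.87-fold in the controls.

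**Figure D1:**
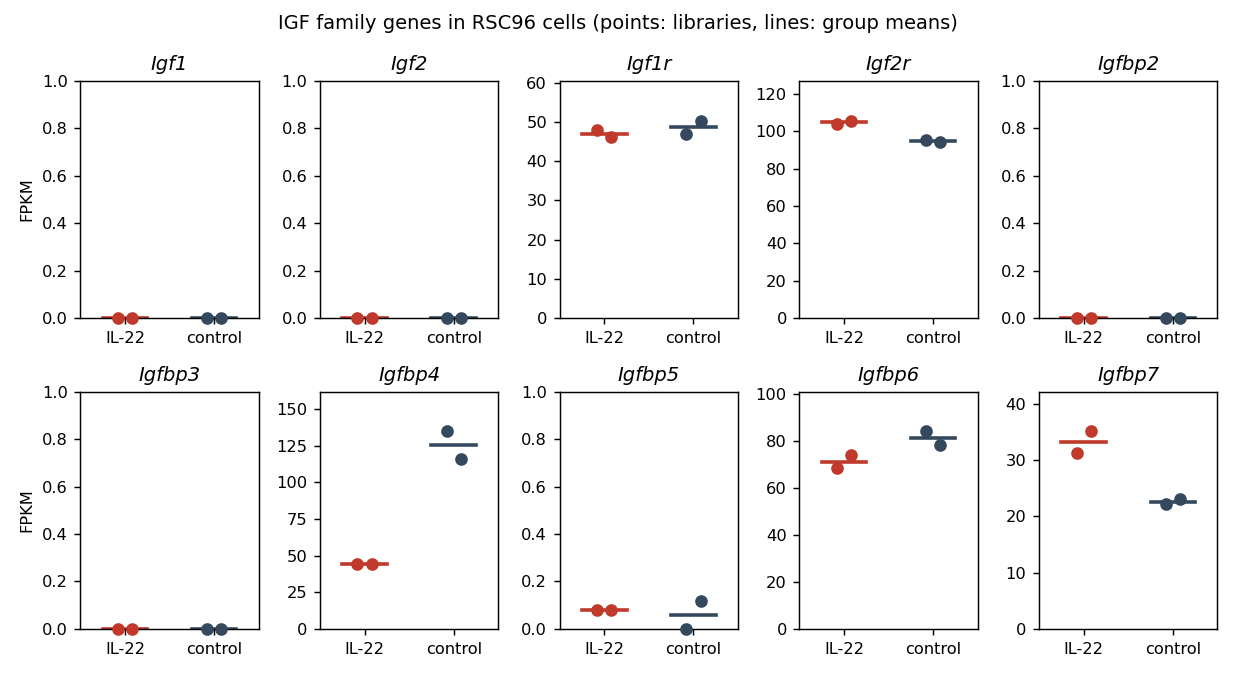
FPKM of the 10 family genes, 1 panel each, with a point per library and a line at the mean of the 2 libraries of a group (IL-22 left, control right). Igfbp4 lies near 44.5 FPKM in both IL-22 libraries and at 116 and 135 FPKM in controls, while 4 genes are at 0 throughout.

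Igfbp4 encodes a binding protein known mostly as an inhibitor of IGF action, released from its ligand by the metalloprotease PAPP-A. It measured 44.5 and 44.5 FPKM with IL-22, against 135 and 116 FPKM in controls. Both IL-22 libraries were far below both controls. Its mean was 44.5 ± 0.0401 FPKM with IL-22 and 125 ± 13.5 FPKM in controls (SD, n = 2 each), a difference of -1.47 ± 0.08 (SE) on the log2(FPKM + 1) scale (limma adjusted p = 1.5e-06). Of the 9485 tested rows, 51 had a larger fall. The control libraries differed from each other more than the IL-22 libraries did, and leaving out a control moved the difference most. It was -1.36 without control library 1 and -1.58 without control library 2, the ends of the range over all 14 alternatives. In bulk RNA, fewer cells of a type and less RNA per cell cannot be told apart.

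The rows whose centred values over the 4 libraries lay nearest to those of Igfbp4 were Znhit6, a snoRNP assembly factor, Foxc1, a forkhead transcription factor, and Pwp2, a protein of ribosomal RNA processing. Znhit6 measured 9.32 and 9.32 FPKM with IL-22, against 30.5 and 25.3 FPKM in controls, at a Euclidean distance of 0.035 on the log2 scale. Foxc1 and Pwp2 lay at distances of 0.10 and 0.11, and 29 of 9484 rows lay within 0.2. With 4 libraries in 2 groups, such likeness reflects mainly the size of the group difference.

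Igfbp7 encodes a secreted matrix-associated protein that binds IGFs weakly. It measured 31.2 and 35.1 FPKM with IL-22, against 22.1 and 23.0 FPKM in controls. Both IL-22 libraries were above both controls. The mean was 33.1 ± 2.75 FPKM with IL-22 and 22.5 ± 0.635 FPKM in controls (SD, n = 2 each), and the difference was 0.53 ± 0.08 (limma adjusted p = 0.000609), where 27.6% of tested rows were called higher.

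Igfbp6, whose product prefers IGF2 over IGF1, measured 68.7 and 74.1 FPKM with IL-22, against 84.3 and 78.6 FPKM in controls. The groups did not overlap, but the gap between IL-22 library 2 and control library 2 was small. The difference was -0.19 ± 0.07 with a 95% interval from -0.35 to -0.02 (limma adjusted p = 0.0490), where 30.8% of tested rows were called lower. This call was lost under 9 of 14 alternatives, including the omission of any single library, with the difference between -0.24 and -0.13 (limma adjusted p from 0.031 to 0.323), so whether Igfbp6 changed was not settled at this precision.

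Igfbp5, a binding protein that also attaches to extracellular matrix, was listed at 0.0781 and 0.0780 FPKM with IL-22 and at 0 and 0.117 FPKM in controls. Igfbp3, whose product is the main IGF carrier of blood, and Igfbp2, a binding protein prominent in the nervous system, were listed at 0 in all 4 libraries. Igfbp1, a hormone-regulated relative outside the set, was also listed at 0 in all 4.

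**Figure D2:**
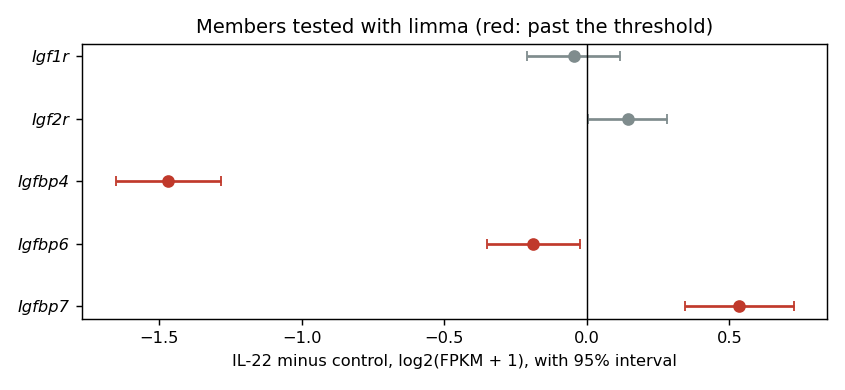
Differences of the 5 tested members, IL-22 minus control in log2(FPKM + 1), with 95% intervals from limma. Igfbp4 stands at -1.47 and Igfbp7 at 0.53, the interval of Igf1r spans 0, and those of Igf2r and Igfbp6 end close to 0.

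The order of the members changed with treatment. In IL-22 libraries the mean levels ran from Igf2r (105 FPKM) through Igfbp6 (71.4), Igf1r (47.0) and Igfbp4 (44.5) to Igfbp7 (33.1). In controls they ran from Igfbp4 (125 FPKM) through Igf2r (94.8), Igfbp6 (81.4) and Igf1r (48.6) to Igfbp7 (22.5). The ranges of neighbouring genes in each order did not overlap, although Igf1r and Igfbp4 lay close together in the IL-22 libraries.

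Together the 6 binding protein genes summed to 144 and 154 FPKM with IL-22, against 241 and 217 FPKM in controls. The mean sum was 149 ± 6.58 FPKM with IL-22 and 229 ± 16.9 FPKM in controls (SD, n = 2 each). The log2 difference of the sums was -0.62. Igfbp4 made up 30.8% and 29.0% of the sum with IL-22, against 55.9% and 53.2% in controls. Igfbp6 made up 47.6% and 48.2% with IL-22, against 35.0% and 36.2% in controls, and so became the most abundant of these mRNAs. Igfbp7 supplied 21.6% and 22.8% with IL-22, against 9.16% and 10.6% in controls. The ratio of Igfbp4 to Igfbp7 mRNA was 1.43 and 1.27 with IL-22 and 6.10 and 5.03 in controls. These shares describe mRNA and were not tested.

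**Figure D3:**
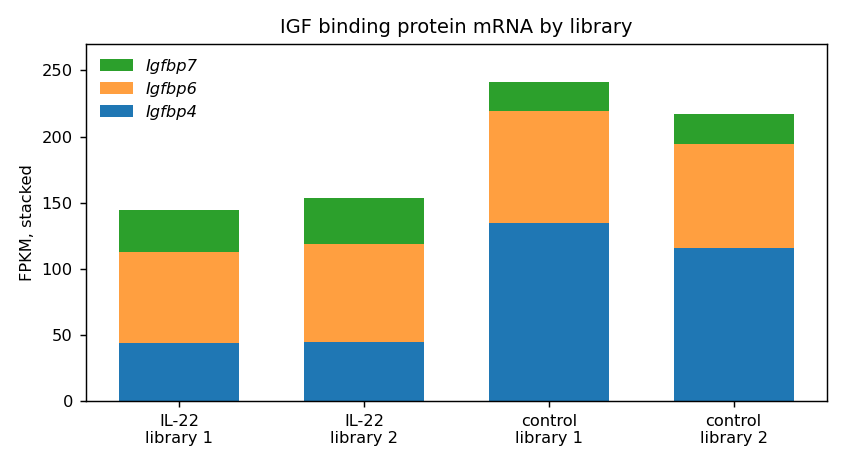
Stacked FPKM of Igfbp4, Igfbp6 and Igfbp7 in each library, IL-22 libraries left of controls. Stacks reach 144 and 154 FPKM with IL-22 and 241 and 217 FPKM in controls, and the Igfbp4 block differs most between the groups.

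The remaining genes of the pathway were followed in 10 lists of 132 genes outside the family. Of these 120 had a row and 91 passed the expression minimum, of which 51 were higher, 22 lower and 18 not called (56.0% higher and 24.2% lower, against 27.6% and 30.8% of all tested rows). Their median difference was 0.27, against -0.02 over all tested rows. The lists were chosen with earlier results of these data known, and a gene high in only 1 group can pass the minimum through that group, so the counts are descriptions.

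Among regulators of the binding proteins, all 9 of the genes that passed the minimum were higher with IL-22, of 15 with a row, where 27.6% of all tested rows were (median 0.87, against -0.02). Mmp9 and Plat are among the 9 and passed the minimum only through their IL-22 libraries, so a rise was built into their selection. Stc1 and Stc2 encode stanniocalcins, which inhibit the PAPP-A proteases that cut IGFBP4. Stc1 measured 8.92 and 8.26 FPKM with IL-22, against 0.977 and 1.56 FPKM in controls, a difference of 2.09 ± 0.15 (limma adjusted p = 7.25e-06). Stc2 measured 32.0 and 33.2 FPKM with IL-22, against 7.71 and 6.53 FPKM in controls, a difference of 2.05 ± 0.10 (limma adjusted p = 6.5e-07). Both genes were thus several times higher in each IL-22 library than in either control. Their target Pappa, named after its values were seen, was at 0.143 and 0.0950 FPKM with IL-22 and at 0.0516 and 0.141 FPKM in controls, too low to be tested. The gelatinase gene Mmp9 was at 2.50 and 2.54 FPKM with IL-22, against 0.437 and 0.306 FPKM in controls, and is given without a test. Htra1 and Ctsd were chosen for mention after their values were seen, as the most abundant of the list. Htra1, a secreted serine protease that cleaves IGFBP5, measured 2606 and 2726 FPKM with IL-22, against 1931 and 1815 FPKM in controls (difference 0.51). Ctsd, the lysosomal protease cathepsin D, measured 1038 and 1124 FPKM with IL-22, against 602 and 584 FPKM in controls (difference 0.86).

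**Figure D4:**
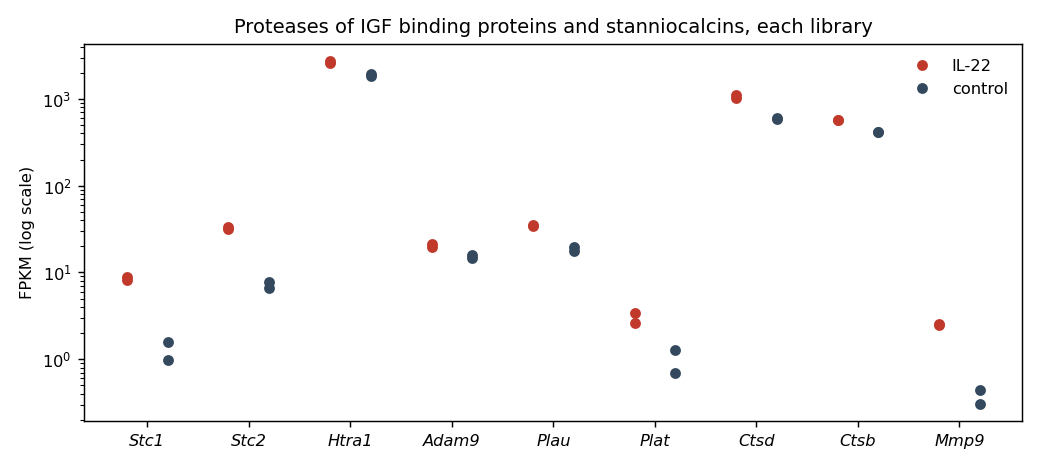
FPKM on a log axis of the 9 tested genes for proteases of IGF binding proteins and for stanniocalcins, with a point for each library (IL-22 left of control for each gene). In all 9 the IL-22 libraries lie above the controls, where the groups of 80.1% of all tested rows did not overlap, in either direction. Mmp9 and Plat passed the expression minimum only through their IL-22 libraries. Levels run from the low Mmp9 to Htra1 at 2606 and 2726 FPKM with IL-22.

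Downstream of the receptors the adaptor, PI3K and AKT list was evenly split (median 0.05, mean -0.02). Of 27 tested genes 10 were higher and 10 lower, against 27.6% and 30.8% of all tested rows, and 7 were not called. Several calls in each direction were lost under alternatives that kept all 4 libraries, so the exact split is not firm. Insr, the insulin receptor gene, measured 8.03 and 6.70 FPKM with IL-22, against 5.00 and 4.99 FPKM in controls (difference 0.48, limma adjusted p = 0.00780), a call lost without either control library or without IL-22 library 1 (range of the limma adjusted p 0.00204 to 0.0704). The substrate genes that couple both receptors to PI3K moved apart. Irs2 measured 3.03 and 3.12 FPKM with IL-22, against 6.93 and 7.58 FPKM in controls (difference -1.02 ± 0.12, limma adjusted p = 9.91e-05). Irs1 measured 8.43 and 8.18 FPKM with IL-22, against 5.52 and 6.33 FPKM in controls (difference 0.43, limma adjusted p = 0.00880), a call lost without control library 1 (adjusted p = 0.0533, range 0.00355 to 0.0533). Irs2 was thus the more abundant of these substrate mRNAs in both controls and Irs1 in both IL-22 libraries. Akt1, the kinase gene at the centre of the pathway, fell to 72.3 and 74.8 FPKM with IL-22, against 135 and 131 FPKM in controls (difference -0.84). Pik3cd, a catalytic subunit of PI3K, rose to 17.3 and 17.0 FPKM with IL-22, against 7.87 and 8.49 FPKM in controls (difference 0.98).

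FOXO transcription factors are excluded from the nucleus when AKT phosphorylates them. The FOXO list holds FOXO genes and chosen FOXO target genes. Of its 16 genes with a row 11 passed the minimum, and all 11 were higher, where 27.6% of all tested rows were. The list median was 0.68, against -0.02 over all tested rows. Irs2, which fell, and Igfbp1, listed at 0, were placed in other lists, so the count holds for this list only. The factors themselves, named to complete the count, were the 3 genes Foxo1 (0.62), Foxo3 (0.52) and Foxo4 (0.83). Gabarapl1, an autophagosome protein gene, measured 94.1 and 98.0 FPKM with IL-22, against 24.5 and 27.0 FPKM in controls (difference 1.86, limma adjusted p = 2.64e-07). Bcl6, a transcriptional repressor, measured 14.4 and 16.2 FPKM with IL-22, against 3.47 and 5.53 FPKM in controls (difference 1.59). Bnip3, a mitophagy receptor gene that hypoxia also induces, measured 89.4 and 90.7 FPKM with IL-22, against 47.0 and 42.3 FPKM in controls. Several of these genes answer to other regulators as well, so the list does not measure FOXO activity.

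The list of mTOR, the growth kinase that AKT activates, was split in direction (median -0.05, mean 0.11). Of 16 tested genes 5 were higher and 6 lower, against 27.6% and 30.8% of all tested rows, and 5 were not called. The largest differences were in the inhibitor genes Ddit4 and Eif4ebp1, which rose. Other inhibitor genes of the list, named after their values were seen, differed in direction. Akt1s1 (-0.53) and Eif4ebp2 (-0.31) fell, Tsc1 (0.35) rose and Tsc2 was not called. Ddit4, whose product REDD1 restrains mTOR under stress, measured 47.4 and 49.0 FPKM with IL-22, against 10.1 and 8.51 FPKM in controls (difference 2.26 ± 0.09, limma adjusted p = 3.18e-07). Eif4ebp1, the translation repressor that mTOR inactivates, measured 270.4 and 264 FPKM with IL-22, against 103 and 114 FPKM in controls (difference 1.30). Mtor itself fell to 16.7 and 18.6 FPKM with IL-22, against 27.3 and 28.2 FPKM in controls (difference -0.62).

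The IGF2 mRNA-binding proteins, which were named for their target transcript and bind many mRNAs, also moved apart although Igf2 was listed at 0. Igf2bp2 measured 138 and 136 FPKM with IL-22, against 71.3 and 77.8 FPKM in controls (difference 0.87 ± 0.07, limma adjusted p = 1.03e-05). Igf2bp1 measured 42.8 and 43.3 FPKM with IL-22, against 55.5 and 60.8 FPKM in controls (difference -0.42 ± 0.07, limma adjusted p = 0.00103). The mannose-6-phosphate sorting list holds the partners of IGF2R in lysosomal traffic. Of its 10 tested genes 2 were higher and 3 lower, against 27.6% and 30.8% of all tested rows. The other 5 were not called (median of the list -0.06). The 3 that fell were M6pr, the smaller mannose-6-phosphate receptor (-0.49), Nagpa, which uncovers the sorting signal (-0.51), and Ap1m1, an adaptor subunit (-0.42).

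The CCN genes have secreted products that carry an IGFBP-like domain. Of 5 tested, 3 were higher and 2 lower, against 27.6% and 30.8% of all tested rows. Cyr61 measured 137 and 134 FPKM with IL-22, against 87.5 and 86.7 FPKM in controls (difference 0.63). Nov rose as well (0.77), and Wisp3 was lower (-0.67), a call lost without the filter, without either control library and without IL-22 library 2 (range of the limma adjusted p 0.000606 to 0.12).

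**Figure D5:**
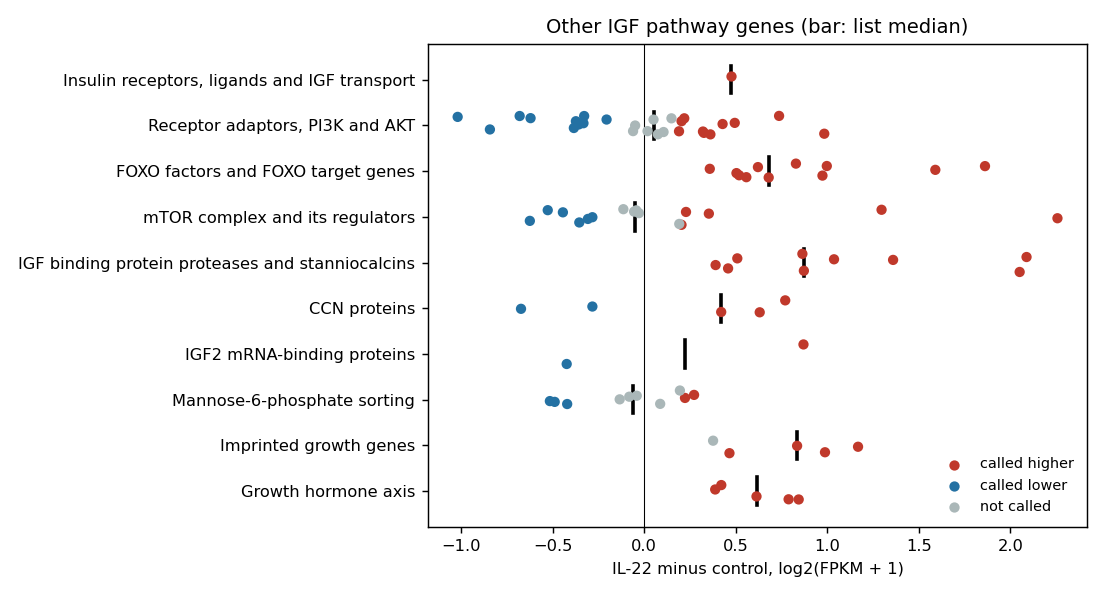
Differences of the tested genes of the 10 pathway lists, IL-22 minus control in log2(FPKM + 1), coloured by the limma call, with a bar at each list median. The protease and stanniocalcin list and the FOXO list lie wholly to the right of 0, with medians of 0.87 and 0.68. So do the imprinted and growth hormone lists, with medians of 0.84 and 0.61, and Insr, alone in its list. The adaptor list straddles 0.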

How the data were processed

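Per the labels' protocols, poly(A) RNA of RSC96 cells was sequenced on an Illumina HiSeq instrument. The authors deposited FPKM for each gene in 1 column per library. TopHat2, Cuffdiff and the build rn5 are named in the submitters' processing notes, with roles and versions not given in the sources used here. Nothing states that counting used strand, so antisense and overlapping genes cannot be told apart. Read totals were not given. The commonest ratio between libraries of rows under 0.15 FPKM put depth, relative to control library 1, at 1.28 in control library 2 and 1.09 in both IL-22 libraries, so no counting intervals are given.

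Rows averaging 1 FPKM or more (9485 of 17778) were tested on log2(FPKM + 1), a scale that understates changes of low genes, using R 4.3.3 and limma 3.58.1 (two-sided, trended eBayes, no covariates, p adjusted by Benjamini-Hochberg over all tested rows, threshold 0.05). The fit was also run on simulated data in which few genes changed, unlike these data, so that run does not show its error rate here. An exact permutation test of 2 libraries against 2 could not reach that threshold. Alternatives were pseudocounts of 0.1, 0.5 and 5, no filter or one of 5 FPKM, quantile and median-of-ratios normalization, eBayes without trend or robust, a replicate block and leaving out each library. The members and lists were chosen with earlier results of these data known. Named were the members, the 3 largest called differences of each list, Igfbp1, Insr, Irs1 and Irs2, and the 3 rows nearest to the member that changed most. Marker genes, Foxo1, Foxo3, Foxo4, Htra1, Ctsd, Plat, Pappa, H19, Ins1 and Ins2 were named outside this rule, after their values were seen. So were Akt1s1, Eif4ebp2, Tsc1, Tsc2, Cox6a2, Cox6b2, Cox8b and Cox8c. Of 132 listed genes 12 were not analysed here for want of a matching row. The lncRNA table was not used. Sequences are from RefSeq, GRCr8, whose build differs from rn5. Python 3.11.15 and matplotlib 3.10.9 drew the figures. Some marker values are not reported here.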

Additional observations from a re-analysis of the deposited data

How the results depend on the processing

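The calls of Igfbp4 (lower) and Igfbp7 (higher) held under all 14 alternatives, and Igf1r was called under none. Of the members, 1 was called higher and 2 lower in the main analysis. The 2 became 1 with a pseudocount of 0.1, without the filter, with quantile normalization, with median-of-ratios size factors and with eBayes without trend, and was 1 to 1 when single libraries were left out, each time because Igfbp6 lost its call. The 1 became 2 with quantile normalization, where Igf2r gained a call. The summed binding protein level stayed between -0.69 and -0.54 on the log2 scale. Higher and lower calls over all rows ranged from 2101 to 2755 and from 2377 to 3070. Of 73 called pathway genes, 53 kept their call under every alternative that tested them, 20 lost it under at least 1, and none of the tested pathway genes or members was called in opposite directions. Whether replicate numbers pair the libraries cannot be told from the values. The deviations of the libraries numbered 1 correlated at -0.00197 over tested rows. That shows no large shared shift but cannot show whether libraries were prepared in pairs. With the replicate block 2755 rows were higher and 3070 lower, with the same count of called members. Fits without a library leave its group with 1, taken to vary as the other group does. Unknown read totals limit what can be said of genes near 0.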

Other observations

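Growth hormone, which induces IGF1 in liver, acts through its receptor, JAK2 and STAT5. Of the 5 genes of this axis that passed the expression minimum, of 8 with a row, 5 were higher with IL-22, where 27.6% of all tested rows were called higher (median difference 0.61, against -0.02 over all tested rows). Ghr, the receptor gene, measured 6.67 and 7.61 FPKM with IL-22, against 2.75 and 4.46 FPKM in controls (difference 0.84 ± 0.17, limma adjusted p = 0.00280). Cish, a feedback inhibitor of STAT5 signalling, measured 4.85 and 5.25 FPKM with IL-22, against 2.55 and 2.44 FPKM in controls (difference 0.79). Jak2, the kinase of this receptor, measured 11.8 and 10.3 FPKM with IL-22, against 7.45 and 6.29 FPKM in controls (difference 0.61). The groups of these 3 genes did not overlap, as in 80.1% of all tested rows. The list is named for growth hormone, but its mRNA levels do not measure the action of that hormone, which was not tested. Igf1 was listed at 0 in every library.

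Imprinted growth genes, the class to which Igf2 belongs, gave 4 higher and 0 lower of 5 tested, of 11 with a row (median 0.84), where 27.6% of all tested rows were called higher and 30.8% lower. Cdkn1c, an inhibitor of cyclin-dependent kinases, measured 3.93 and 4.46 FPKM with IL-22, against 1.58 and 1.06 FPKM in controls (difference 1.17, limma adjusted p = 0.000265). Mest, a hydrolase-like gene expressed from the paternal allele, measured 9.34 and 8.86 FPKM with IL-22, against 4.14 and 4.04 FPKM in controls (difference 0.99). Plagl1, a zinc-finger factor, measured 3.19 and 2.30 FPKM with IL-22, against 1.02 and 1.15 FPKM in controls (difference 0.84). H19, the neighbour of Igf2 and named after its values were seen, was at 0.0527 and 0.0526 FPKM with IL-22 and at 0.171 and 0 FPKM in controls, too low to be tested.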
